A study of Homo sapiens with 3 samples.

Results

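NF-kB is a family of dimeric transcription factors built from the Rel proteins and held in the cytoplasm by inhibitory IkB proteins. The transcripts of 10 genes of this system were followed: the subunits NFKB1, NFKB2, REL, RELA and RELB, and the feedback genes NFKBIA, NFKBIE, NFKBIZ, TNFAIP3 and BIRC3. The genes were chosen by name, and every probe that the platform annotation gave to one of them was taken. That gave 13 probes for 9 of the 10 genes, of 47231 probes and 20039 genes on the arrays. No probe of the annotation carried the symbol BIRC3, so BIRC3 is not analysed here. Of the 13 probes, 9 were above background on all 3 arrays, 1 on the untreated array alone and 3 on none.

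The samples were cultures of MDA-MB-231, a human breast carcinoma line derived from a pleural effusion, which the series describes as deficient in argininosuccinate synthase. A sample had ADI-PEG20, a pegylated enzyme that degrades extracellular arginine, for 24 h and then L-arginine at 420 µg/ml for 24 h. Another was under ADI-PEG20 (0.3 µg/ml) throughout 48 h, and the last was kept untreated for 48 h. For the first of these the labels give the ADI-PEG20 dose as 0.3 with an incomplete unit, and they do not say whether the enzyme was removed before arginine was added. All cells grew in the same medium with serum. Total RNA of each sample was hybridised to 1 bead array, so no condition had a replicate and no test between conditions was possible.

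In resting cells the IkB proteins mask the nuclear localisation signals of NF-kB dimers. In the canonical pathway, receptors for tumour necrosis factor or interleukin-1 activate the IkB kinase complex, which marks IkB alpha for destruction and so frees dimers of RELA and NFKB1. In the non-canonical pathway the kinase NIK drives processing of the NFKB2 precursor, which partners RELB. Freed dimers bind kB sites in DNA, among them sites beside the genes of their own inhibitors and subunits, which makes the system a set of feedback loops. MDA-MB-231 is a line known for constitutive NF-kB activity.

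The kB sequences near the start sites of subunit and feedback genes are shown first, because feedback through kB sites is part of how the system works. RefSeq promoter windows of GRCh38.p14 were found for 8 of the 10 genes, and RELB and NFKBIE had none in the table used. The 10-letter kB consensus was searched on both strands in the 250 bases before each start site. It was found for 7 of the 8 genes, against 11.8% of 27305 genes, and in 9 of their 13 windows, against 9.96% of 35116 windows. The genes were chosen as subunits and feedback genes of NF-kB, so the higher share is no independent result. RELA was the gene without a match, which says only that these letters are not in its windows. For NFKB1, REL, NFKBIA, NFKBIZ, TNFAIP3 and BIRC3 the stretch around the matches is printed 5′ to 3′ on the gene's own strand, with the matches in capitals. The consensus is nearly its own reverse complement, so matches on opposite strands can overlap, as in REL.
NFKB1, chr4:102501290-102501339, plus strand: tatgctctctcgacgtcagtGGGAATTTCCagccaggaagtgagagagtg
REL, chr2:60881507-60881557, plus strand: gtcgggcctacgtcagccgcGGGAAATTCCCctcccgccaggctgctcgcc
NFKBIA, chr14:35404801-35404850, minus strand: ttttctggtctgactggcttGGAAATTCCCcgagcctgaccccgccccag
NFKBIZ, chr3:101827747-101827796, plus strand: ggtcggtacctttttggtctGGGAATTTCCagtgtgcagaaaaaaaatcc
TNFAIP3, chr6:137867172-137867233, plus strand: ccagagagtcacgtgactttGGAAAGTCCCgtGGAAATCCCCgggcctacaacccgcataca
BIRC3, chr11:102317265-102317378, plus strand: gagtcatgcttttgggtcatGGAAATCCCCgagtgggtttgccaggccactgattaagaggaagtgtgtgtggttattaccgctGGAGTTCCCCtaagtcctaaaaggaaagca

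The matches began 49 bases before the start site in NFKB1, 81 in NFKBIA and 223 in NFKBIZ. TNFAIP3 and BIRC3 each held a pair of separate matches, 67 and 55 bases before the start in TNFAIP3 and 199 and 135 in BIRC3. NFKB2 had matches before 2 of its 3 annotated start sites, and NFKBIZ also had one before an alternative start. The other NFKB1 window had no match. A match of letters is a description of the window and not evidence of binding in these cells.

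Across the 3 arrays no transcript of the system was 2-fold apart, as was so for most genes above background. NFKBIE, which encodes IkB epsilon, was the gene that differed most among those above background throughout: it was 1.61-fold higher after arginine than under continued ADI-PEG20. It was the single gene to reach 1.5-fold between any pair of arrays, where 9.90% of 11025 genes were that much higher in the same comparison. NFKB1, NFKBIA, NFKBIZ and TNFAIP3 were also lowest on the ADI-PEG20 array, while RELA, RELB and the brightest NFKB2 probe were highest there. Every difference below is in log2 units of corrected intensity with 16 added, the first-named array minus the second. A probe counted as above background at an intensity over 164, which is 3 SDs over the mode of all intensities. The intensities of different probes are not comparable with each other, so each gene is compared only with itself.

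**Figure D1:**
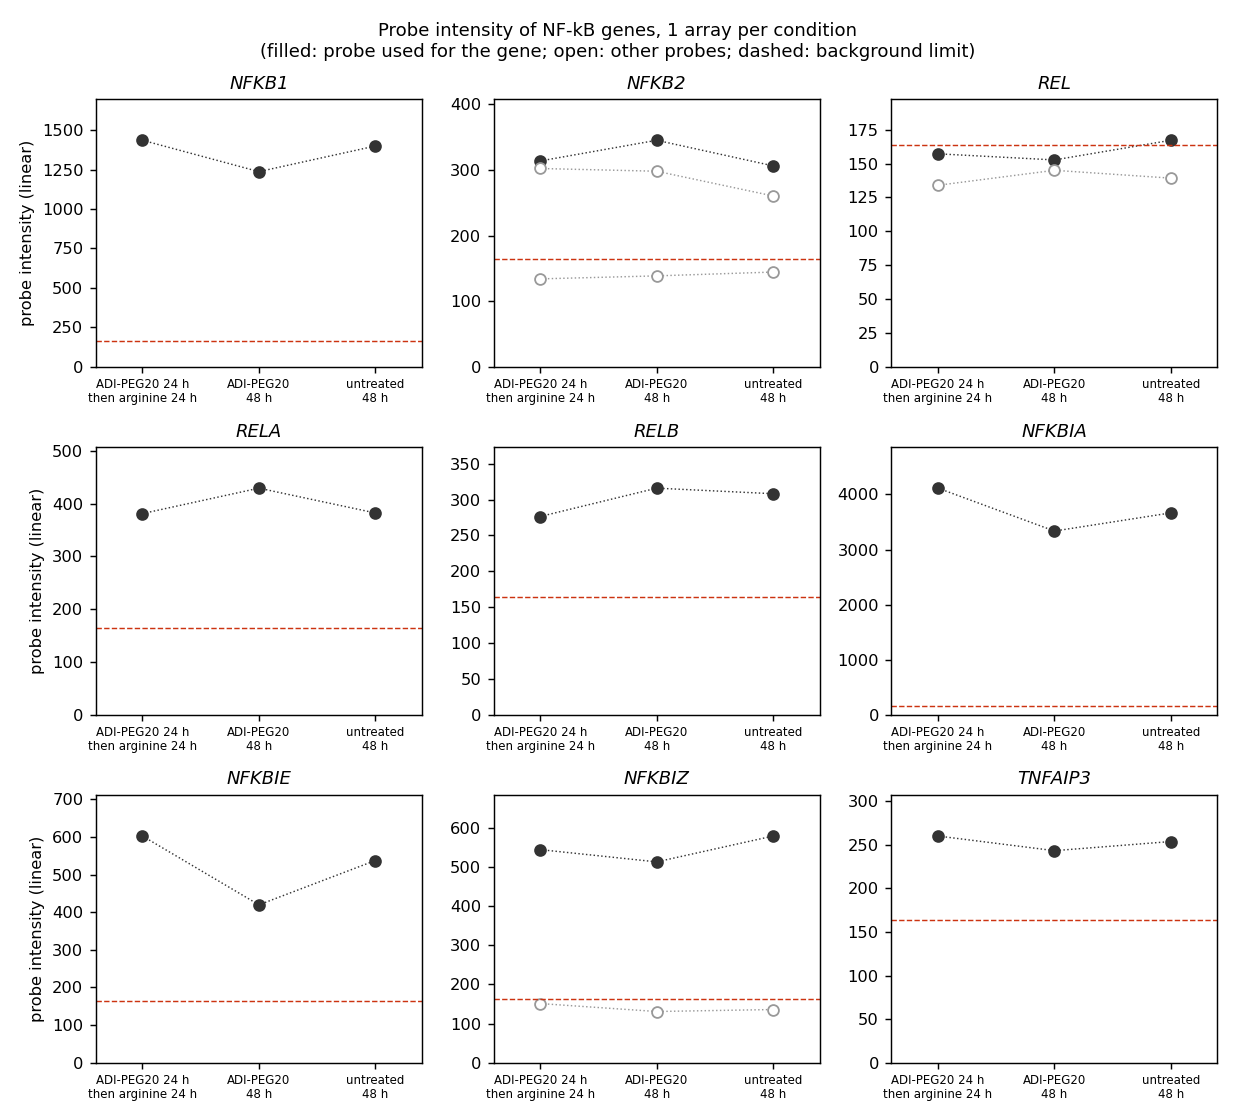
Linear probe intensity (vertical axes, starting at 0) of the 9 genes with a probe, on the array after arginine, the ADI-PEG20 array and the untreated array, left to right. Each point is 1 array, dotted lines join the values of a probe, filled points are the probe used for the gene and the dashed line is the background limit of 164. NFKBIE has its low point on the ADI-PEG20 array, at 419.5, and REL lies at the background limit.

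Among the subunits, NFKB1 encodes the precursor p105 and its product p50, the DNA-binding partner of RELA. NFKB1 had an intensity of 1435 after arginine, 1237 under ADI-PEG20 and 1399 in untreated cells. It was thus lowest under ADI-PEG20, by -0.20 against untreated cells, and the other arrays lay within 0.04 of each other.

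RELA, the p65 subunit with the main transactivation domain of the canonical dimer, went the other way. Its intensity was 381 after arginine, 429 under ADI-PEG20 and 382 in untreated cells. The ADI-PEG20 array was the highest, at 0.24 over untreated cells, and the array after arginine differed from the untreated one by -0.0066.

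NFKB2 encodes p100, which acts as an inhibitor until it is processed to p52. Its brightest probe read 314 after arginine, 345 under ADI-PEG20 and 306 in untreated cells. A second probe read 302, 298 and 260.2 on the same arrays in that order, and another, at 134, 139 and 144, was not above background. Both measured probes were higher under ADI-PEG20 than in untreated cells, by 0.28 and 0.35. They differed after arginine, which was 0.06 over untreated cells on the brightest probe and 0.38 on the second. Against ADI-PEG20 the array after arginine was at -0.22 and 0.03 on these probes, so the return of NFKB2 towards the untreated level was seen on 1 probe of 2.

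RELB, the partner of p52, had 276 after arginine, 316 under ADI-PEG20 and 308 in untreated cells. Here the array after arginine stood apart as the lowest, at -0.33 against ADI-PEG20 and -0.27 against untreated cells. The ADI-PEG20 and untreated arrays differed by 0.06. REL, the c-Rel subunit best known from lymphocytes, was close to the background limit. It read 157 after arginine and 153 under ADI-PEG20, both below the limit, and 167 in untreated cells, just over the limit. Its level was at least 1.07-fold lower on each treated array than on the untreated one. The measured differences, -0.51 under ADI-PEG20 and -0.34 after arginine, depend on the background correction, and the ADI-PEG20 one ranged from -0.90 with plain subtraction to -0.13 with none. Another REL probe was below the limit on all arrays.

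Among the inhibitors, NFKBIA encodes IkB alpha, the classical feedback inhibitor that NF-kB itself induces. Its intensity was 4115 after arginine, 3336 under ADI-PEG20 and 3666 in untreated cells. The ADI-PEG20 array was the lowest, by -0.14 against untreated cells, and the array after arginine the highest, by 0.17. The array after arginine was 0.31 over ADI-PEG20.

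NFKBIE, whose product IkB epsilon also retains dimers in the cytoplasm, followed the same order with larger steps. It read 603 after arginine, 419.5 under ADI-PEG20 and 537 in untreated cells. Under ADI-PEG20 it was at -0.48 against untreated cells, a level 1.40-fold lower, and 86.9% of genes had a higher difference. After arginine it was 0.69 over ADI-PEG20, a difference higher than that of 93.0% of genes, and 0.21 over untreated cells. The gene had 1 probe on the array, so no second reading of its transcript was at hand. Without background correction the difference between the treated arrays was 0.52, under 1.5-fold.

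NFKBIZ encodes IkB zeta, a nuclear IkB protein that acts as a cofactor for a subset of NF-kB targets. Its measured probe read 545 after arginine, 514 under ADI-PEG20 and 580.2 in untreated cells, and the other probe was below background on every array. Both treated arrays were lower than the untreated one, by -0.11 after arginine and by -0.22 under ADI-PEG20. TNFAIP3 encodes A20, the ubiquitin-editing enzyme that shuts off signalling from tumour necrosis factor receptors. It read 260.2 after arginine, 243 under ADI-PEG20 and 254 in untreated cells. It was at -0.12 under ADI-PEG20 and at 0.07 after arginine against untreated cells, and at 0.19 between the treated arrays.

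**Figure D2:**
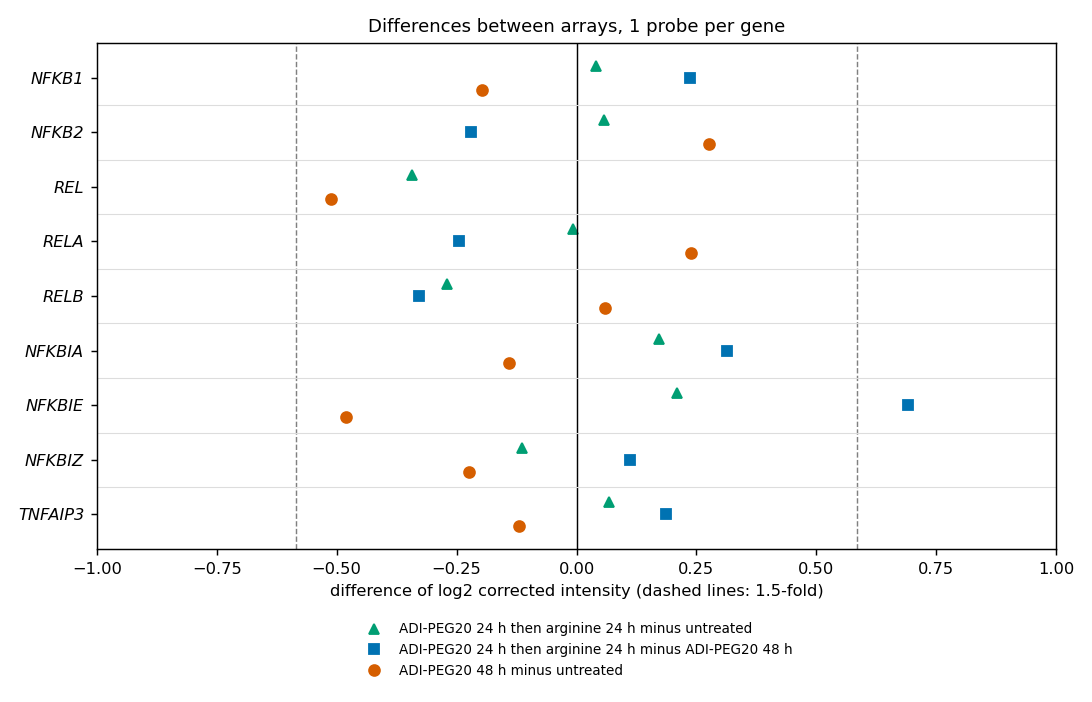
Difference of log2 corrected intensity (horizontal axis) for each gene and each pair of arrays in which it entered, with 1 probe per gene. REL has no square. Triangles give the array after arginine minus untreated, squares the array after arginine minus ADI-PEG20 and circles ADI-PEG20 minus untreated. The NFKBIE square, at 0.69, is the one point past the dashed lines of 1.5-fold, and the REL points rest on arrays at the background limit.

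Without replicates, the available gauge of error was the disagreement between probes of the same gene. The SD of a single probe's difference, taken from the 2 brightest probes of each gene that had them, was 0.26 for ADI-PEG20 against untreated cells (2936 genes). It was 0.24 for the array after arginine against untreated cells and 0.27 against ADI-PEG20. It covers probes and not cultures. With REL held at its bound, 2 of 9 genes lay beyond it for ADI-PEG20 against untreated cells, NFKB2 and NFKBIE, against 46.4% of all genes. After arginine against untreated cells 1 of 9 did, RELB, against 25.6% of all genes. After arginine against ADI-PEG20 3 of 8 did, RELB, NFKBIA and NFKBIE, against 47.3%. None of these counts is above the share over all genes, so they are no sign of a change in these genes as a group. NFKB1, RELA, NFKBIZ and TNFAIP3 lay within this SD in each of the comparisons.

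The counts were then set beside those over all genes that entered, a gene entering with its probe over the limit on either array compared. For ADI-PEG20 against untreated cells, 0 of the 9 genes were at least 1.5-fold higher and 0 lower, against 7.90% and 9.33% of 11042 genes. The median difference was -0.14, against -0.0034 over all genes. With REL held at its bound the median was -0.12. REL entered through the untreated array alone, where it was brightest, so the filter fixed its direction. After arginine against untreated cells, the counts were again 0 and 0 of 9, against 2.53% and 2.61% of 10987 genes, with medians of 0.04 and -0.0069. After arginine against ADI-PEG20, 8 genes entered, of which 1 was at least 1.5-fold higher and 0 lower, against 9.90% and 8.83% of 11025 genes. The medians there were 0.15 and -0.0007. No gene of the system was 2-fold apart in any comparison, where 3.89% of all genes were for ADI-PEG20 against untreated cells, 0.664% for the array after arginine against untreated cells and 3.96% for it against ADI-PEG20. With so few genes these shares do not set the system apart from the rest of the array in either direction. The comparisons share arrays, so their values are not independent of one another.

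The rest of the pathway was read from lists of other genes, which do not overlap the 10. Of 20 ligands and receptors, 13 entered for ADI-PEG20 against untreated cells, with a median of 0.003. By measured difference 1 was at least 1.5-fold higher and 0 lower, against 7.90% and 9.33% of all genes. The gene that was higher is IL1A, interleukin-1 alpha, whose transcript was above background under ADI-PEG20 alone, so the filter fixed its direction. With IL1A held at its bound, 0 were at least 1.5-fold higher. IL1A read 146 after arginine, 174 under ADI-PEG20 and 145 in untreated cells, a level at least 1.24-fold higher under ADI-PEG20 than on either other array. TNFRSF1B, the second tumour necrosis factor receptor, had 268 after arginine, 230.1 under ADI-PEG20 and 267 in untreated cells, or -0.42 for ADI-PEG20 against untreated cells. TLR4, the lipopolysaccharide receptor, was at 0.41. TNFRSF1A, the main tumour necrosis factor receptor, lay within 0.01 of its untreated value on both treated arrays, and TNF itself was not above background on any.

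Kinases and adaptors that carry the signal had a median of 0.10 over 19 of 23 genes for ADI-PEG20 against untreated cells. Of these, 1 was at least 1.5-fold higher and 2 lower, against 7.90% and 9.33% of all genes. IKBKE, an IkB kinase-related enzyme, read 514 after arginine, 325 under ADI-PEG20 and 438 in untreated cells. It was at -0.63 under ADI-PEG20 against untreated cells and at 0.95 after arginine against ADI-PEG20. TRAF3, the adaptor that keeps NIK low, read 197 after arginine, 160 under ADI-PEG20 and 187 in untreated cells. The ADI-PEG20 value was not above background, so the filter fixed the direction of TRAF3 in both comparisons with that array. The level there was at least 1.54-fold lower than in untreated cells and at least 1.77-fold lower than after arginine. RBCK1, a subunit of the linear ubiquitin ligase, was highest under ADI-PEG20, with 587 after arginine, 927 under ADI-PEG20 and 624 in untreated cells. RBCK1 was at 0.68 for ADI-PEG20 against untreated cells, and its second probe gave 0.93.

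The NIK gene MAP3K14 read 269 after arginine, 210.2 under ADI-PEG20 and 249 in untreated cells, which was 0.74 between the treated arrays. The catalytic subunit gene IKBKB was at -0.45 under ADI-PEG20 against untreated cells, while CHUK, the other catalytic subunit, was at -0.18 and IKBKG, the regulatory subunit NEMO, at 0.05. The kinase and adaptor list thus held genes low and genes high on the ADI-PEG20 array. After arginine against ADI-PEG20, 3 of its 19 genes were at least 1.5-fold higher, namely TRAF3, IKBKE and MAP3K14, and 1, RBCK1, was lower. Over all genes, 9.90% were that much higher and 8.83% lower. For TRAF3 the direction was fixed by the filter.

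Of 13 other inhibitors, 12 entered, with a median of -0.04. ADI-PEG20 against untreated cells put 1 of them at least 1.5-fold higher and 1 lower by measured difference, against 7.90% and 9.33% of all genes. NFKBIB, which encodes IkB beta, read 289 after arginine, 327 under ADI-PEG20 and 251 in untreated cells. It was at 0.67 for ADI-PEG20 against untreated cells, and its second probe gave 0.31. The direction of NFKBIB was therefore opposite to that of NFKBIE, which codes for a related IkB protein. NFKBIA, at -0.14, lay within the SD of a single probe's difference. NFKBID, a nuclear IkB gene, was above background in untreated cells alone, at 171, so the filter fixed its direction. Its level was at least 1.16-fold lower on each treated array. TAX1BP1, an adaptor that works with A20, was at 0.43 for ADI-PEG20 against untreated cells, with 3907 after arginine, 4890.2 under ADI-PEG20 and 3661 in untreated cells.

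Other known targets of NF-kB had a median of -0.0004 over 25 of 30 genes for ADI-PEG20 against untreated cells. Of these, 1 was at least 1.5-fold higher and 4 were lower, against 7.90% and 9.33% of all genes. With so few genes the counts do not set the list apart from the rest of the array. CD83, an immunoglobulin superfamily gene used as a marker of activated dendritic cells, read 360.5 after arginine, 249 under ADI-PEG20 and 375 in untreated cells. It was at -0.99 under ADI-PEG20 against untreated cells, and a second probe gave -0.85. After arginine CD83 was 0.91 over ADI-PEG20, and at -0.09 against untreated cells.

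PLAU, the urokinase gene of plasminogen activation, read 3211 after arginine, 2158 under ADI-PEG20 and 4074 in untreated cells. Both treated arrays were lower than the untreated one, by -0.96 under ADI-PEG20 and -0.36 after arginine. TNFAIP2, a gene induced by tumour necrosis factor, read 316 after arginine, 217 under ADI-PEG20 and 286 in untreated cells. It was at -0.78 under ADI-PEG20 against untreated cells and 1.02 between the treated arrays. TRAF1, an adaptor induced by NF-kB, read 201 after arginine, 161 under ADI-PEG20 and 194 in untreated cells, at least 1.71-fold lower under ADI-PEG20 than in untreated cells. Its other probe, above background under ADI-PEG20 alone, read 169 there and 148 in untreated cells, a measured difference of 0.74 in the opposite direction. Each TRAF1 probe was over the limit on only 1 array of this comparison, so the filter fixed both directions. The reading of TRAF1 thus depends on the probe, and these probes do not settle it. IL32, a cytokine gene, was the one target at least 1.5-fold higher under ADI-PEG20, at 0.72, with 0.26 on its other probe. IL32 read 494 after arginine, 634 under ADI-PEG20 and 433 in untreated cells.

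After arginine against ADI-PEG20, 4 of 23 targets were at least 1.5-fold higher, namely CD83, PLAU, TNFAIP2 and TRAF1, around a median of -0.05. The chemokine gene CXCL2 was the 1 lower target. Over all genes, 9.90% were that much higher and 8.83% lower. Of the arrays compared here, the TRAF1 probe used was over the limit after arginine alone, so the filter fixed its direction. The other TRAF1 probe was at -0.46 in this comparison, so TRAF1 is not settled here either. The ligands and receptors had a median of -0.05 over 14 genes there. IL1A was the 1 lower gene by measured difference, and with it held at its bound 0 were past 1.5-fold. The other inhibitors had a median of -0.14 over 11 genes with 0 past 1.5-fold. After arginine against untreated cells, no gene of the 4 lists reached 1.5-fold in either direction. Few genes of the whole array did so there, 2.53% higher and 2.61% lower. Their medians lay between -0.0094 for ligands and receptors and 0.15 for kinases and adaptors. Over the 3 comparisons, 6 of the 12 list medians changed sign with the processing.

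**Figure D3:**
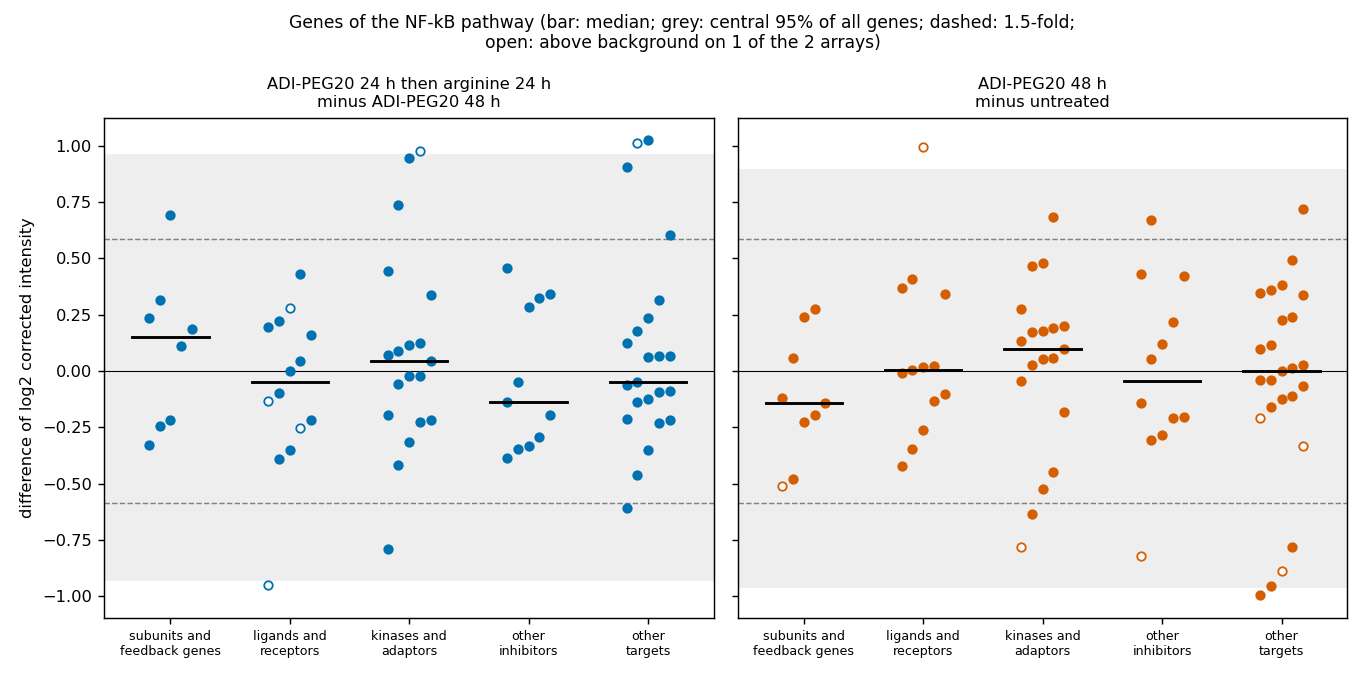
Difference of log2 corrected intensity (vertical axis) of each gene that entered, by list, for the array after arginine minus ADI-PEG20 (left) and ADI-PEG20 minus untreated (right). Bars are list medians, the grey band is the central 95% of all genes that entered, dashed lines mark 1.5-fold and open points were above background on 1 of the 2 arrays. For ADI-PEG20 against untreated cells the list medians lie between -0.14 and 0.10, and CD83, at -0.99, is the lowest point.

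Genes whose pattern over the 3 arrays was most like that of NFKBIE were sought by the distance between their differences from the untreated array. The nearest of 9785 genes were COL6A3, a collagen chain gene, at a distance of 0.0027, TMEM109 at 0.0065 and the nuclear pore gene NUP62 at 0.012. Within a distance of 0.1 there were 96 genes, so a pattern over 3 arrays does not single out a few genes.

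As to the identity of the samples, 8 of 9 genes known as expressed in MDA-MB-231, VIM and CD44 among them, were above background on all arrays, and FN1 was on none. All 8 were lower under ADI-PEG20 than in untreated cells, with a median of -0.28, and 7 of them were higher after arginine than under ADI-PEG20, with a median of 0.29. NFKBIE too was lowest under ADI-PEG20 and highest after arginine, an order that VIM and KRT18 of these markers had as well. The other 6 markers were below their untreated values after arginine. Of 6 genes known as low or absent in the line, ESR1 and PGR were not above background, but ERBB2, CDH1 and EPCAM were on every array and GATA3 was on the ADI-PEG20 array. CDH1, epithelial cadherin, was at 1.03 and EPCAM at 0.62 for ADI-PEG20 against untreated cells. Of 6 leukocyte markers with a probe, CD14 and CD68 were above background on all arrays, while PTPRC, CD3E, LYZ and NKG7 were on none. Their summed corrected signal was 3172 after arginine, 3118 under ADI-PEG20 and 3257 in untreated cells. Of 8 endothelial and fibroblast markers, LUM and PDGFRB were above background on all arrays, PECAM1 on 2 and the other 5 on none, with sums of 309, 351 and 278 on the same arrays in that order. LUM was at 0.60 and PDGFRB at -0.40 for ADI-PEG20 against untreated cells. The part of these markers in the results above was not tested. The deposited arrays share 1 intensity distribution, so these values hold no trace of any shift in the RNA content of the cells, and fewer expressing cells cannot be told apart from less RNA per cell.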

How the data were processed

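Total RNA of 3 MDA-MB-231 samples was measured on 1-colour bead arrays, 1 array per condition, and samples were grouped by their titles. The authors deposited linear probe intensity for 47231 probes. GenomeStudio is named, without a version, per the submitters' processing notes; no source used here states how the values were normalized. Each array had the same distribution, with a minimum of 106, a maximum of 28717 and a median of 149.3, as after quantile normalization. The values were not centred, and which normalization was used stays unknown. A second deposited table, before normalization, has 6 columns of sample values whose names match no single sample label, and it was not used.

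Intensity was corrected by normexp, with the mode of all values as background mean (137.3), the SD of the lower side (8.92) and an exponential mean of 425, and log2 was taken after adding an offset of 16. These settings, like the limit of 164, come from the intensity distribution. Of the probes, 30113 had 1 gene in the platform annotation, 8 had several and 17110 had none listed. Symbols were updated through gene identifiers for 30074 probes, through accessions for 18, and kept for 21. The probe with the highest mean stood for its gene, which entered a comparison with that probe over the limit on either array. Where it was over the limit on 1 array only, the difference is a bound, written as at least: the dim side was set to the smallest intensity over the limit there. Counts at a fold use measured differences unless a gene is said to be held at its bound. Counts beyond the SD between probes use the bound, also for all genes. The number of arrays limits the precision. No test was run. The correction and difference were tried on simulated arrays with bright probes made 2-fold apart, which does not cover dim probes or smaller differences.

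The 10 genes and the pathway lists were chosen with earlier results of these data known. Named beside the 10 genes were the 3 genes of each list with the largest difference under ADI-PEG20 and the 3 genes nearest to NFKBIE. The rule did not name the markers, TNFRSF1A, TNF, MAP3K14, IKBKB, CHUK, IKBKG, TNFAIP2, IL32, CXCL2 and the genes of the closing section; these were named after their values were seen. Python 3.11.15, numpy 2.4.6, pandas 2.3.3 and scipy 1.17.1 were used.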

Additional observations from a re-analysis of the deposited data

How the results depend on the processing

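Alternatives were no background correction, an offset of 50, plain subtraction of the mode with a floor of 16, the mean over a gene's probes, genes above background on all 3 arrays, no filter, and median centring. A value was held to have moved if it changed by more than the SD between probes, and a count if it changed by over 1.5 times. The list medians, between -0.14 and 0.15, are too near 0 for that measure to say whether they are stable. The 3 medians of the subunits and feedback genes had 1 sign throughout, but 6 of the 12 medians of the pathway lists changed sign in at least 1 alternative. For ADI-PEG20 against untreated cells, the ligands and receptors ranged from -0.07 to 0.0065, the other inhibitors from -0.06 to 0.05 and the other targets from -0.0005 to 0.02. For the array after arginine against ADI-PEG20, the ligands and receptors ranged from -0.06 to 0.02, the kinases and adaptors from -0.02 to 0.05 and the other targets from -0.06 to 0.06. NFKBIE after arginine against ADI-PEG20 ranged from 0.52, without background correction, to 0.72, and the count of 1 gene at least 1.5-fold higher became 0 without correction. With plain subtraction REL was past 1.5-fold, at -0.90 under ADI-PEG20 and -0.59 after arginine, so that 1 gene was lower in each comparison with untreated cells. Without correction those values were -0.13 and -0.09. The difference of RELA after arginine against untreated cells, near 0, changed sign, with a range from -0.007 to 0.0011. Signs of the other differences of the subunits and feedback genes were the same in the alternatives run. For single genes of the pathway lists the signs over the alternatives were not examined.

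Counts over all genes at 1.5-fold depend on the correction and the filter. For ADI-PEG20 against untreated cells, 872 higher and 1030 lower became 244 and 325 without correction and 463 and 576 with the offset of 50. With genes above background on all 3 arrays, 576 were higher. For the array after arginine against untreated cells, 278 higher and 287 lower became 4 and 1 without correction, 39 and 29 with the offset of 50, and 514 and 527 with plain subtraction. They became 70 and 64 with genes above background on all 3 arrays, and 504 and 462 without a filter. For the array after arginine against ADI-PEG20, 1092 higher and 973 lower became 336 and 279 without correction and 623 and 513 with the offset of 50. The filters change which genes are counted; the cause of the other moves was not tested.

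The alternative from the table before normalization was not run, since its columns could not be matched to samples. No paired analysis was possible because each condition had 1 array. Transcripts near the background limit, such as REL, have differences compressed by the offset.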

Other observations

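The cytokine and chemokine genes among the NF-kB targets did not share a direction. CXCL8, interleukin-8, read 1442 after arginine, 1657 under ADI-PEG20 and 1559 in untreated cells, or 0.10 for ADI-PEG20 against untreated cells. IL6 read 1266 after arginine, 1381 under ADI-PEG20 and 1189 in untreated cells, or 0.24. CXCL1 was at -0.16, CCL5 at -0.07, LIF at -0.11 and CSF1 at -0.0004 for the same comparison. These values are within the SD of a single probe, while the brightest IL32 probe, at 0.72, and CXCL2, at 0.36, are beyond it. The other IL32 probe, at 0.2552, is just within the SD of 0.2635. CXCL2 read 206 after arginine, 251 under ADI-PEG20 and 223 in untreated cells. CXCL3 was above background in untreated cells alone, and CCL2 and CCL20 on no array.

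Among targets with a protective role, SOD2, mitochondrial superoxide dismutase, read 2537 after arginine, 2686 under ADI-PEG20 and 2087 in untreated cells. SOD2 was thus higher on both treated arrays, by 0.30 after arginine and by 0.38 under ADI-PEG20. BIRC2, which encodes a ubiquitin ligase related to that of BIRC3, was at 0.02 and -0.04 in these comparisons.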
